A study of Mus musculus with 12 samples.

Results

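Marrow of irradiated mice that then received vehicle was compared with marrow of nonirradiated mice that received vehicle, on 3 arrays each, 6 of the 12 whole-transcript arrays of the study. The arrays were chosen by their labels, and each of the 19938 genes tested was read from the array row with the highest mean over all 12 arrays among the rows that carry exactly 1 gene symbol. All mice were of the B6 strain and 16 days old when whole marrow was flushed from the long bones and its total RNA extracted. Mice of the irradiated group had received a sub-lethal dose of 2 fractions of 310 cGy at 10 days of age, 6 days before harvest. Vehicle was given to both groups for 5 days, from day 11 to day 15. The other 6 arrays came from mice given parathyroid hormone (PTH), a regulator of calcium and bone, on the same days, 3 from irradiated and 3 from nonirradiated mice, and entered the fit as 2 further groups. The comparison asks how the marrow's expression differs 6 days after irradiation. Nothing in the labels ties an array to its own mouse or to a pool, so p-values here reflect the variation among these samples alone, part of which may be technical.

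Ionizing radiation breaks DNA, and dividing or easily killed blood cells die within hours to days. Lymphocyte precursors are among the most sensitive cells of the marrow, while fat cells and many macrophages divide little and survive. Marrow also holds fat cells, whose number differs with age and after injury, and macrophages that take up dead cells and recycle their iron. Damaged DNA itself activates p53, a transcription factor that induces cell cycle arrest, repair and death genes.

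Values are log2 expression, so a difference of 1 is a doubling, and with 3 arrays per group the median standard error of a difference was 0.166 over all genes. Neutrophil granule genes, which are abundant in marrow, had list means between 10.45 and 10.68 in the nonirradiated and between 10.45 and 10.62 in the irradiated arrays. Erythroid markers had means of 10.75 to 11.19 and 10.86 to 11.33. Skeletal muscle markers, which could come with a bone flush, had means of 6.24 to 7.17 and 6.41 to 7.18, with 0 of 20 called. The arrays are written below as N1 to N3 for nonirradiated and I1 to I3 for irradiated vehicle replicates. The N3 array stood apart by an interquartile range of 2.63, as did replicate 3 of the irradiated PTH arrays with 2.66, against 3 to 3.14 in the other 10 arrays. By sex-linked genes, 0 of the 3 nonirradiated and 1 of the 3 irradiated vehicle arrays (I1) had the female pattern, against all 3 of the nonirradiated and 1 of the 3 irradiated PTH arrays.

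Irradiation changed 442 of 19938 genes (2.22%) in the marrow of vehicle mice, 241 higher (1.21%) and 201 lower (1.01%), by limma (moderated test, Benjamini-Hochberg adjusted p under 0.05). The typical change was near 2-fold: the median rise was 1.04 and the median fall -1.05, against a median of -0.026 over all genes. Changes of at least 4-fold were found for 17 rises and 18 falls. The 4 largest falls were those of the B cell antigen gene Ms4a1, the peptidase gene Cpm, the B cell gene Cd72 and the cytokine gene Il1b, and the 4 largest rises those of Serpina3n, an acute-phase protease inhibitor, the monocyte chemokine Ccl12 and the lipid hydrolases Lipg and Abhd6. In each of the 442 genes the 2 groups were apart, as they were in 18.8% of the genes tested. The number of calls depended on single arrays: it was 289 without N2, 264 (109 higher, 155 lower) without N3, 271 without I1, 211 without I2, 231 without I3, 420 without N1, and 762 without irradiated PTH replicate 3. Of the 241 rises 92, and of the 201 falls 86, were called without any 1 of the 6 vehicle arrays. Among the 60 genes with the largest changes, 53 were. With a term for the sex pattern, 147 of the rises and 147 of the falls passed.

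**Figure D1:**
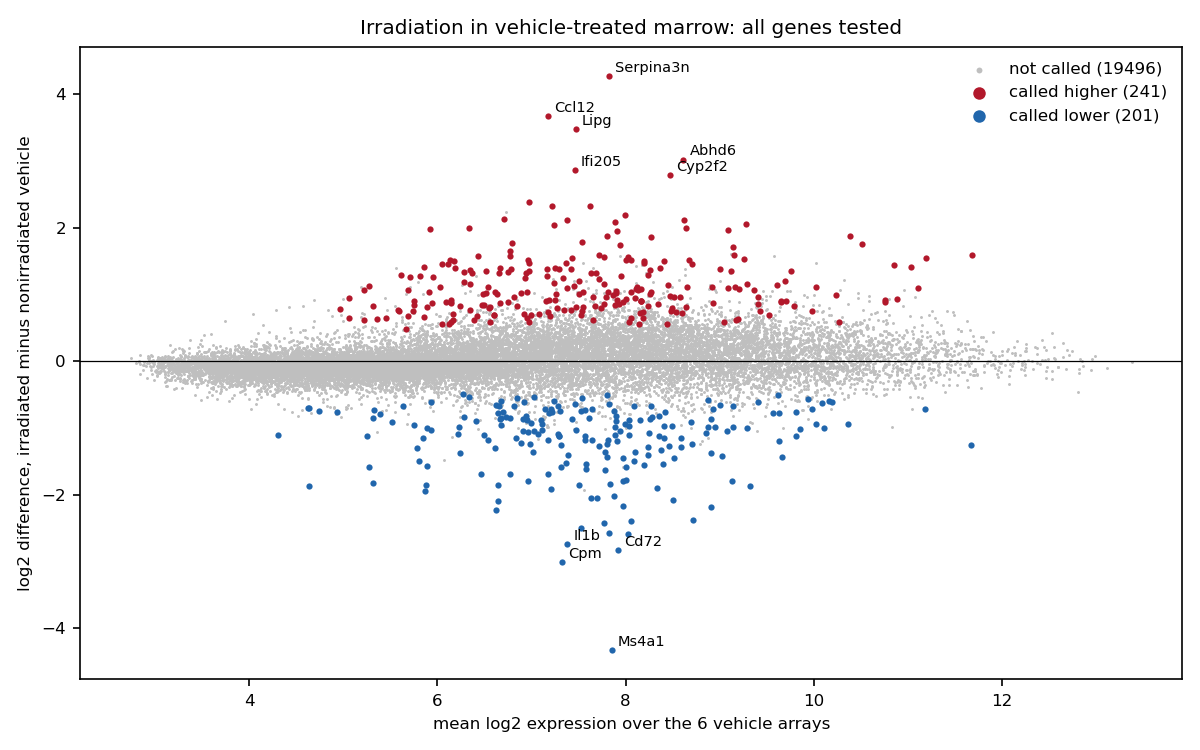
Each point is 1 of 19938 genes, with its mean log2 expression over the 6 vehicle arrays on the x axis and the log2 difference, irradiated minus nonirradiated vehicle, on the y axis. The 241 genes called higher (red) and 201 called lower (blue) reach from -4.33 for Ms4a1 to 4.28 for Serpina3n, and grey points did not pass.

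**Figure D2:**
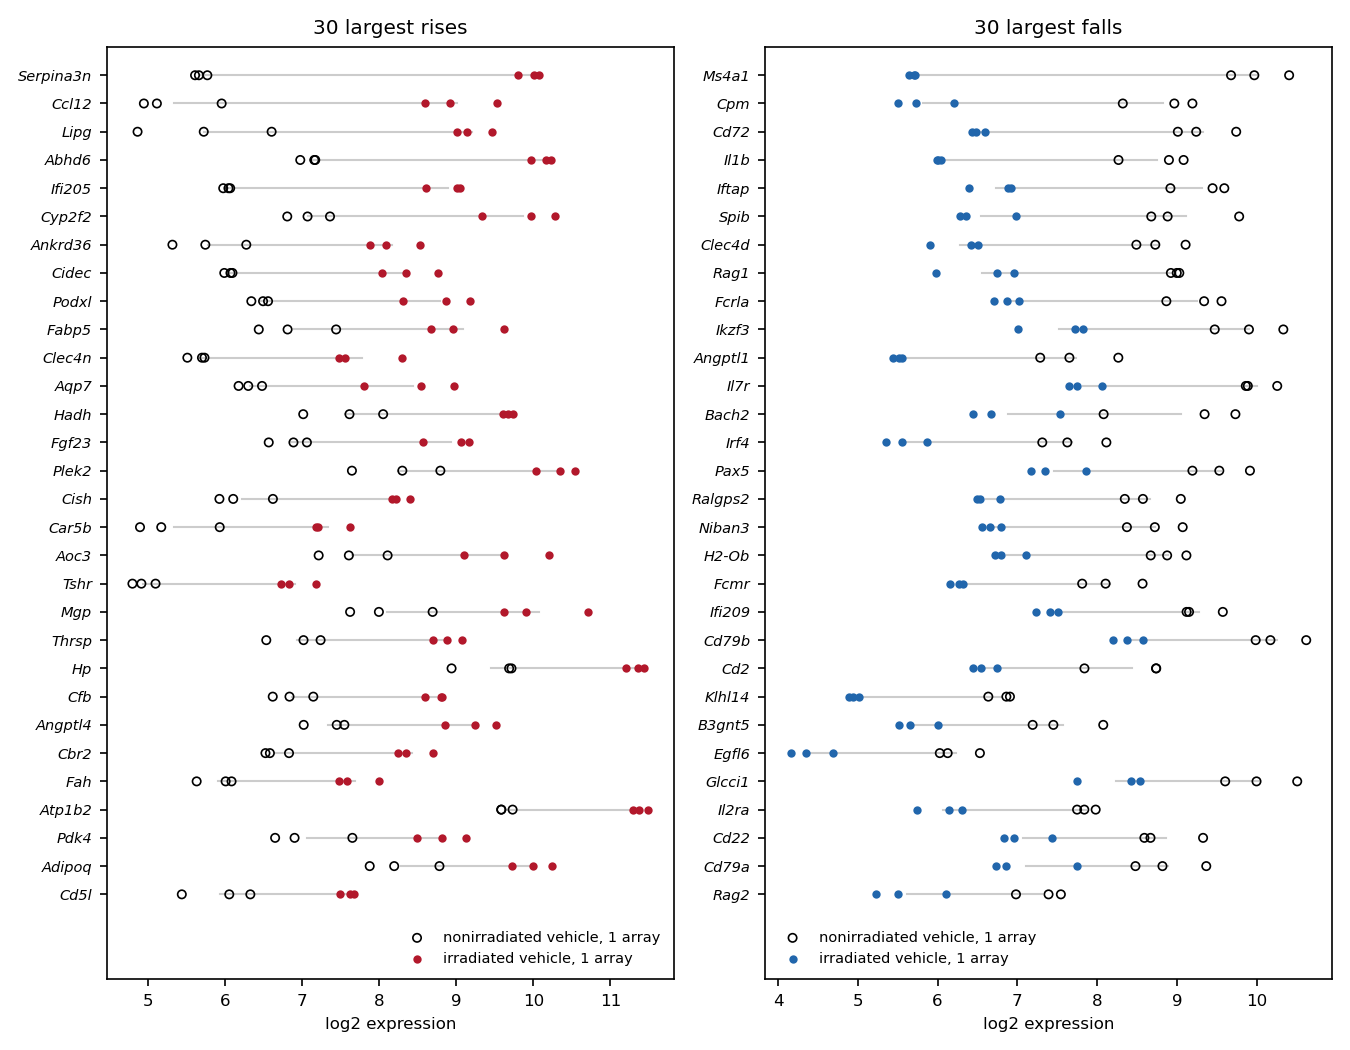
Log2 expression (x axis) in each nonirradiated (open circles) and irradiated (filled circles) vehicle array for the 30 largest rises and 30 largest falls, with a grey line joining the group means. The 60 genes were taken from called genes whose groups did not overlap. By that choice the 3 irradiated arrays lie on one side of the 3 nonirradiated arrays in each.

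Genes of the B lineage fell together. Of 23 measured B-lineage markers 19 fell, 0 rose and all 23 differences were below 0, with a median of -1.69; in bulk marrow, fewer cells of a type and less RNA per cell cannot be told apart. Members from early and late stages were among those that fell, from the recombinase of precursors to antigens of mature cells. Vpreb1, Igll1, Cr2 and Cd37, named here as the rest of the list, were also below 0 but did not pass. Rag1 and Rag2, which cut the antigen receptor genes so that they can be rearranged, fell by 2.42 and 1.69, and Dntt, which adds bases at the joints, fell by 1.54. Rag1 read 9.03, 9.0 and 8.92 in the nonirradiated arrays and 6.96, 5.97 and 6.74 in the irradiated arrays. Its spread was wider after irradiation, where I1, I2 and I3 all lay below the lowest nonirradiated value. Pax5, the transcription factor that fixes B cell identity, read 9.19, 9.91 and 9.53 without and 7.86, 7.35 and 7.17 with irradiation, a 4.25-fold lower mean (SE 0.24, adjusted p = 9.53e-04). Ebf1, which acts before it, fell by 1.19, and Pou2af1, a coactivator of immunoglobulin genes, by 1.28. The signalling chains of the B cell receptor, Cd79a and Cd79b, fell by 1.78 and 1.88. Of 21 genes of B cell receptor signalling 6 fell and 0 rose (median -0.47): beside these 2 chains the kinase Blk (-1.69), the adaptors Blnk (-1.58) and Bank1 (-1.08), and Malt1 (-0.71), which carries the signal to NF-kappaB. Rag1, Rag2, Pax5, Pou2af1, Cd79a, Cd79b, Blk and Blnk passed in all 6 fits that left out 1 array. Calls ended for Dntt and Ebf1 without N2, N3, I2 or I3, Bank1 without I3, and for Malt1 without any 1 of the 6. With a term for the sex pattern, Dntt, Ebf1 and Malt1 no longer passed.

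Inhibitory receptors of B cells were part of the fall. Cd22, a sialic acid-binding receptor that dampens B cell signals, read 8.67, 9.33 and 8.59 and then 7.44, 6.83 and 6.95, a fall of 1.79 (SE 0.21, adjusted p = 9.93e-04). Its relative Siglecg fell by 1.46. Siglech, a relative found in plasmacytoid dendritic cells, fell by 1.53, so 3 of 9 measured Siglec genes fell and 0 rose. Of 17 Fc receptor genes 4 fell and 0 rose, and these 4 are receptors of B cells: Fcrla (-2.39), the IgM receptor Fcmr (-1.91), the low-affinity IgE receptor Fcer2a (-1.58) and Fcrl1 (-1.16). The median of the whole Fc receptor list was -0.075. H2-Ob, a chain of the MHC class II modulator of B cells, read 8.88, 9.12 and 8.67 and 7.11, 6.80 and 6.72, a 4.04-fold lower mean, and was the 1 call among 11 class II presentation genes. Cd72 was lower by 2.83 and Cd180, a Toll-like receptor homologue of B cells, by 1.14. Cd40, the receptor for T cell help, fell by 0.83, and Tnfsf13b, the B cell survival factor BAFF, which is made by other cells, by 0.76. Without any 1 of the 6 arrays the calls of Cd22, Siglecg, Siglech, Fcrla, Fcmr, Fcer2a, H2-Ob, Cd72 and Cd180 held. Calls ended for Fcrl1 without N1, N2, I1, I2 or I3, Cd40 without I2, and for Tnfsf13b without N1, N2, N3, I1 or I3. With a term for the sex pattern, Fcrl1 and Tnfsf13b no longer passed.

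Promoter windows from RefSeq (assembly GRCm38.p6) were searched on both strands for TCCC, any 2 bases and GGGA, a form of the motif bound by Ebf1. It was present in 1.01% of 19177 windows of 300 bases over all genes tested, in 3.52% of 199 windows of genes called lower and in 1 of 23 windows of the B-lineage list. That window is the one of Cd22. The 250 bases before its start lie at chr7:30879029-30879278 on the minus strand. They are shown 5′ to 3′ with the match in capitals, as the only window of the B-lineage list that holds it. Cd22 and Ebf1 both fell, but binding was not measured and a link between these falls was not tested.

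Cd22: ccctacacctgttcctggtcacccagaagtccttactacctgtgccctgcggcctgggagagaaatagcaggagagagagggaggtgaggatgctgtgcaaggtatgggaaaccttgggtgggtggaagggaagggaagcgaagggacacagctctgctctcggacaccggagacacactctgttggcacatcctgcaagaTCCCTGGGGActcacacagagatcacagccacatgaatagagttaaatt

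Several of the largest falls outside the lists were transcription factors and signalling genes of lymphocytes. Ikzf3, the lymphoid zinc finger factor Aiolos, read 9.47, 10.33 and 9.90 in nonirradiated and 7.82, 7.73 and 7.01 in irradiated arrays, a fall of 2.38 (SE 0.30, adjusted p = 0.00136). Bach2, a repressor that guides B cell development, fell by 2.17, from 8.08, 9.73 and 9.35 to 7.53, 6.67 and 6.44, and its N1 value lay closer to the irradiated arrays than N2 and N3. Niban3 read 8.72, 9.07 and 8.37 and 6.79, 6.56 and 6.66, and Ralgps2, an exchange factor for Ral GTPases, 9.05, 8.57 and 8.35 and 6.50, 6.53 and 6.78. Both fell to similar extents (4.14-fold and 4.15-fold). Ralgps2 lies beside Angptl1, which encodes an angiopoietin-like secreted protein and fell by 2.23. Klhl14, B3gnt5, a glycosyltransferase of lacto-series glycolipids, Egfl6, a secreted matrix protein, and Glcci1 fell by 1.85, 1.85, 1.83 and 1.80. Iftap, an annotated neighbour of Rag2, fell by 2.59; its dimmer row differed by -0.21. Ikzf3, Niban3, Ralgps2, Angptl1, Klhl14, B3gnt5, Egfl6, Glcci1 and Iftap passed in all 6 fits that left out 1 array. Calls ended for Bach2 without N2, N3, I2 or I3.

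T cell, natural killer cell and dendritic cell genes gave calls in both directions. Of 20 T and NK markers 2 fell and 1 rose (median -0.24). Cd2, an adhesion receptor of T and NK cells and of some B cells, read 8.74, 8.74 and 7.84 and 6.54, 6.45 and 6.74, a fall of 1.86 (SE 0.23, adjusted p = 0.00116), and Cd8b1, a chain of the CD8 coreceptor, fell by 0.84. Gzmb, the granzyme of killer cells, rose by 1.11, from 5.45, 5.68 and 5.30 to 6.46, 6.65 and 6.65. Cd3e, a chain of the T cell receptor complex, differed by -0.61 and did not pass (adjusted p = 0.105). The GIMAP genes, small GTPases of lymphocytes, were lower in all 8 measured members and did not overlap in 7, where 9.83% of all genes were lower without overlap, with a median of -0.56, yet 0 passed; Gimap6 came closest with -0.84 (adjusted p = 0.084). Of 12 SLAM receptors Slamf6 and Slamf7 fell, by 1.44 and 1.04, and 0 rose. Of 21 dendritic cell markers 5 fell and 2 rose, 13 were below 0, and the median was -0.17, between -0.33 and -0.0052 when 1 array was left out. The falls included Siglech (given above) and Ly6d (-1.09), genes found in plasmacytoid dendritic cells, together with Irf4 (-2.09), Cd209a (-1.30) and Cd300c (-0.72). Bst2, Ccr9 and Tcf4, picked out afterwards as further genes of plasmacytoid cells on the list, did not pass. The rises were Xcr1 (1.52), a chemokine receptor, and Itgae (0.83), an integrin, both found on the dendritic cells that cross-present antigen to CD8 T cells. Other genes of these cells on the list did not pass and were picked out afterwards: Clec9a, a receptor for dead cells, differed by 0.55 (adjusted p = 0.0985), and the transcription factors Batf3 and Irf8 by 0.27 and -0.17. Xcr1 read 5.29, 5.28 and 5.55 without and 6.72, 7.29 and 6.66 with irradiation, and the groups did not overlap. The calls of Cd2, Gzmb, Slamf6, Slamf7, Ly6d, Irf4 and Cd209a held whichever of the 6 arrays was left out. Calls ended for Cd8b1 and Xcr1 without I2, Cd300c without N2, I2 or I3, and for Itgae without N2, N3, I1 or I2. The calls of Itgae ended with a term for the sex pattern.

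Plasma cell markers held 1 fall and 1 rise: of 10 measured, Irf4 fell and Jchain, which joins secreted IgM and IgA, rose by 0.94, from 4.67, 4.58 and 4.51 to 5.33, 5.71 and 5.56. Mzb1, a chaperone of antibody secretion, differed by -0.63 (adjusted p = 0.181). Megakaryocyte and platelet genes were lower in 15 of 16 members (median -0.54), and 3 passed: the platelet matrix protein Mmrn1 (-1.41), the podoplanin receptor Clec1b (-0.99) and Rab27b (-1.03), which carries dense granules. Mmrn1 read 8.29, 7.98 and 7.99 and 6.71, 6.86 and 6.47. Of 22 stem and progenitor genes 2 fell, Myb (-1.12), a transcription factor of progenitors, and Angpt1 (-0.82), a vessel and niche factor, and 0 rose; Kit, the stem cell factor receptor, differed by -0.73 (adjusted p = 0.155). Of 17 erythroid markers Car1 fell by 1.25 and 0 rose. None of the 19 neutrophil granule genes passed (median -0.023); Retnlg had the difference -0.99 with an adjusted p of 0.268. Of 23 monocyte and macrophage markers 3 rose and 0 fell (median 0.39). They were Cd5l (1.66), a secreted protein of tissue macrophages, the scavenger receptor Marco (0.71) and Hmox1 (0.93), which breaks down haem. Cd5l read 6.33, 6.05 and 5.44 and 7.68, 7.62 and 7.49. Leaving out 1 of the 6 arrays did not end the calls of Mmrn1. Calls ended for Jchain and Cd5l without any 1 of the 6, Clec1b without I3, Rab27b without N2, N3 or I3, and for Myb without N2, N3, I2 or I3. They also ended for Angpt1 without N1, I2 or I3, Car1 without I1 or I3, Marco without N2, N3, I1, I2 or I3, and for Hmox1 without N3, I1 or I2. Jchain, Cd5l and Marco did not pass once a term for the sex pattern was added.

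Fat cell genes were higher after irradiation. All 19 measured adipocyte markers had differences above 0 (median 1.29), 11 passed and 0 fell. The lipid droplet proteins Cidec, Plin1 and Plin4 rose by 2.33, 1.36 and 1.37. Cidec read 5.99, 6.10 and 6.07 in the nonirradiated arrays and 8.76, 8.35 and 8.04 in the irradiated arrays, a 5.03-fold higher mean (SE 0.25, adjusted p = 5.70e-04). Aqp7, the channel through which glycerol leaves fat cells, read 6.30, 6.48 and 6.17 and 8.96, 8.54 and 7.80, and was the 1 call among 12 aquaporins. Adipoq, the fat cell hormone adiponectin, rose by 1.70, from 8.78, 8.19 and 7.88 to 9.73, 9.99 and 10.24. The fatty acid carrier Fabp4 rose by 1.41, the lactate receptor Hcar1 by 1.51, Car3 by 1.55, glycerol phosphate dehydrogenase Gpd1 by 1.25, the hormone-sensitive lipase Lipe by 1.32 and Adig by 1.06. The list mean over the 19 markers was 6.89 to 7.11 in the nonirradiated and 7.95 to 8.27 in the irradiated arrays. Over the same arrays the means of endothelial markers were 7.28 to 7.59 and 7.69 to 8.02, and those of marrow stromal markers 8.04 to 8.09 and 8.18 to 8.27; their part in the result was not tested. The calls of Cidec, Plin1, Aqp7, Fabp4, Hcar1, Car3, Gpd1 and Adig held whichever of the 6 arrays was left out. Calls ended for Plin4 without N3, Adipoq without N2, N3, I2 or I3, and for Lipe without N1, N3, I1 or I2. A term for the sex pattern ended the calls of Lipe.

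Of 30 lipases and lipid hydrolases 3 rose and 0 fell: Lipe, counted above among the fat cell genes, Lipg and Abhd6. Lipg, an endothelial lipase that acts on high-density lipoprotein, read 6.60, 5.72 and 4.86 without and 9.47, 9.01 and 9.14 with irradiation, 11.1-fold higher (SE 0.36, adjusted p = 5.66e-04). Abhd6, which hydrolyses monoacylglycerols, read 7.17, 7.16 and 6.97 and 10.16, 10.23 and 9.97, 8.12-fold higher, with the nonirradiated arrays close together. Fabp5, a fatty acid carrier of macrophages and epithelia, rose by 2.19, from 7.44, 6.81 and 6.44 to 8.67, 8.96 and 9.62. Of 27 fatty acid oxidation genes 3 rose and 0 fell (median 0.46). Hadh, a mitochondrial beta-oxidation enzyme, read 7.61, 8.05 and 7.01 and 9.68, 9.73 and 9.60, a rise of 2.11 (SE 0.31, adjusted p = 0.00398). Pdk4, which keeps pyruvate out of the citric acid cycle when fat is burnt, rose by 1.74 and Cpt2, which passes fatty acids into mitochondria, by 0.82. Of 35 fatty acid and triglyceride synthesis genes 3 rose and 0 fell: Thrsp (1.96), a promoter of fatty acid synthesis, the desaturase Scd1 (1.59) and malic enzyme Me1 (1.33). Thrsp read 7.24, 7.02 and 6.53 and 8.88, 8.70 and 9.08. Angptl4, an inhibitor of lipoprotein lipase, rose by 1.87, the lipoprotein genes Apoc1 and Apod by 1.39 and 0.69, and Pck1, which makes glycerol phosphate or glucose from oxaloacetate, by 1.51. Cholesterol synthesis genes were higher in 20 of 22 members (median 0.38, 0.23 without N3), and 0 passed. Leaving out 1 of the 6 arrays did not end the calls of Lipg, Abhd6, Fabp5, Hadh, Pdk4, Thrsp and Scd1. Calls ended for Cpt2 without N3 or I3, Me1 and Apod without N2, N3, I2 or I3, Angptl4 without I1 or I2, and for Apoc1 without N2, N3, I1 or I3. They also ended for Pck1 without I2. Apoc1 and Apod did not pass once a term for the sex pattern was added.

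**Figure D3:**
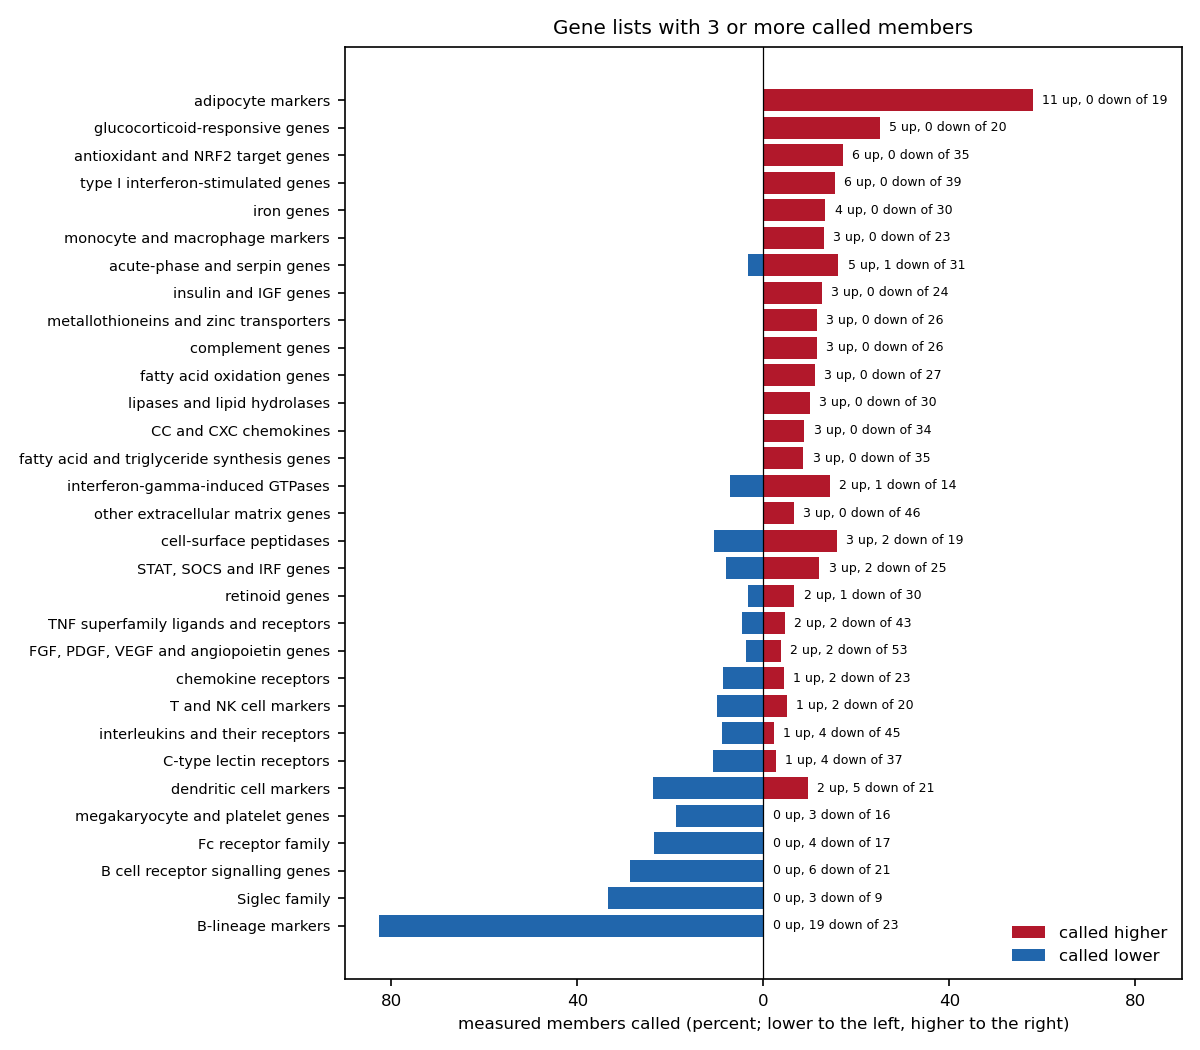
For each gene list with 3 or more called members, the bars give the percent of measured members called higher (red, to the right) or called lower (blue, to the left), with the counts beside them. Adipocyte markers (11 of 19 higher) and B-lineage markers (19 of 23 lower) stand at the 2 ends, and lists such as cell-surface peptidases hold calls of both directions.

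Serpina3n, a secreted protease inhibitor of the acute phase, had the largest rise of all genes. It read 5.77, 5.66 and 5.61 without and 10.07, 9.79 and 10.01 with irradiation, 19.4-fold higher, and neither group spread over more than 0.15 (SD, n = 3). Of 31 acute-phase and serpin genes 5 rose, 1 fell and 25 did not pass (median 0.21). Haptoglobin (Hp), which binds free haemoglobin, read 9.69, 9.72 and 8.94 and 11.43, 11.20 and 11.36, a rise of 1.88 (SE 0.28, adjusted p = 0.00446). Lrg1, a secreted glycoprotein of neutrophils and liver, rose by 1.53, the metalloreductase Steap4 by 1.29 and Serping1, the inhibitor of the first complement protease, by 1.12. Serpinb10, an intracellular serpin of marrow cells, fell by 1.54. Of 26 complement genes 3 rose and 0 fell (median 0.27). Cfb, the alternative-pathway protease, read 7.14, 6.84 and 6.62 and 8.80, 8.60 and 8.82, with the 3 irradiated values closer together than the nonirradiated ones, and C4b rose by 1.57. Among 14 measured genes of the Serpina family, Serpina3n rose, its neighbour Serpina3b fell by 1.58, and the other 12 lay between -0.24 and 0.22. Serpina3b read 6.98, 6.66 and 6.39 and 5.37, 4.98 and 4.96, so the 2 adjacent paralogs moved in opposite directions; whether their rows share probe sequence was not tested. The calls of Serpina3n, Hp, Steap4, Serping1, Serpinb10, Cfb, C4b and Serpina3b held whichever of the 6 arrays was left out. Calls ended for Lrg1 without N2, N3, I1 or I2. With a term for the sex pattern, Lrg1 no longer passed.

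The largest chemokine difference was that of a monocyte attractant. Ccl12, a ligand of the receptor Ccr2, read 5.95, 5.11 and 4.95 in the nonirradiated and 8.60, 8.91 and 9.53 in the irradiated arrays, 12.8-fold higher (SE 0.29, adjusted p = 1.32e-04), with no overlap. Among 19 CC chemokines it was the 1 call, and the others lay between -0.28 and 0.83, with Ccl2, another Ccr2 ligand, at 0.37 (adjusted p = 0.41), Ccl7 at 0.66 and Ccl8 at 0.83. Over the 34 CC and CXC chemokines 3 rose and 0 fell. Cxcl9, which interferon-gamma induces and which attracts T cells, rose by 1.52, from 7.25, 7.36 and 7.28 to 9.06, 8.78 and 8.62, and Cxcl16, made by macrophages and dendritic cells, by 0.65. Cxcl10, induced like Cxcl9, differed by 1.21 and did not pass (adjusted p = 0.0725). Of 23 chemokine receptors Cxcr4 (-0.61), which holds precursors in the marrow, and Cxcr5 (-0.69), which guides B cells to follicles, fell, and Xcr1 rose. Ccl12 and Cxcl9 passed in all 6 fits that left out 1 array. Calls ended for Cxcl16 without N2, N3, I1, I2 or I3, Cxcr4 without I2, and for Cxcr5 without N1, N2, I1, I2 or I3. The calls of Cxcl16 and Cxcr5 ended with a term for the sex pattern.

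Of 45 genes of the interleukin list 4 fell and 1 rose. Il1b, the inflammatory cytokine interleukin-1 beta, read 9.08, 8.90 and 8.27 and 5.99, 6.0 and 6.04, 6.66-fold lower (SE 0.24, adjusted p = 2.56e-04), and its 3 irradiated values were almost equal. Its natural antagonist Il1rn rose by 0.96, from 7.44, 7.12 and 6.96 to 8.06, 8.14 and 8.22. Il7r, the receptor for the growth factor of lymphocyte precursors, fell by 2.19, Il2ra, the alpha chain of the interleukin-2 receptor, by 1.79, and Il12a, a subunit of interleukin-12, by 1.02. Il2ra read 7.98, 7.84 and 7.75 and 6.30, 5.74 and 6.14, with no overlap. Of 22 inflammasome genes Il1b was the 1 call, and 16 had differences below 0. NF-kappaB genes gave 2 falls and 0 rises of 19: Rel (-1.25), the subunit most used in lymphocytes, and Birc3 (-0.65), an inhibitor of cell death that NF-kappaB induces. Of 23 Toll-like receptors and adaptors Tlr3, the sensor of double-stranded RNA, rose by 1.04 and Cd180 fell. Without any 1 of the 6 arrays the calls of Il1b, Il7r, Il2ra, Il12a and Rel held. Calls ended for Il1rn without N3, I2 or I3, Birc3 without any 1 of the 6, and for Tlr3 without N1, N2, N3, I2 or I3. The calls of Birc3 ended with a term for the sex pattern.

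Most genes that type I interferon induces lay higher after irradiation. Of 39 measured, 36 were above 0 and 25 did not overlap between groups, where 8.95% of all genes were higher without overlap; 6 passed, 0 fell, and the median was 0.59 (0.43 without N3). The oligoadenylate synthetase genes Oas1a, Oas2 and Oasl2, whose enzymes answer double-stranded RNA, rose by 1.33, 1.11 and 1.59. Oas1a read 7.12, 7.04 and 6.89 in nonirradiated and 8.47, 8.37 and 8.19 in irradiated arrays, 2.51-fold higher (SE 0.15, adjusted p = 0.00105). Rtp4, a chaperone protein that interferon induces, rose by 1.35, Ifit1, which binds foreign RNA ends, by 1.39, and Ifitm1, which blocks virus entry, by 1.35. Ifit1 read 8.14, 8.74 and 8.03 and 9.44, 9.81 and 9.83. Of 14 GTPases induced by interferon-gamma, Gbp7 (1.07) and Irgm1 (0.87) rose and Gbp9 (-0.97) fell. Stat4, which interleukin-12 activates, and Irf4 were lower, Stat4 by 0.90. Oas1a and Rtp4 passed in all 6 fits that left out 1 array. Calls ended for Oas2 and Stat4 without any 1 of the 6, Oasl2 and Gbp7 without N1, N3, I1, I2 or I3, Ifit1 without N3, I2 or I3, and for Ifitm1 without N2, N3, I1 or I3. They also ended for Irgm1 without N2, N3, I1, I2 or I3, and for Gbp9 without N2, I1 or I3. Oas2, Oasl2, Gbp7, Irgm1 and Stat4 did not pass once a term for the sex pattern was added.

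The core of the interferon-stimulated response element, searched on both strands as GAAA, any 2 bases and GAAA, was present in 3.27% of the 19177 RefSeq promoter windows and in 13 of 36 windows (36.1%) of the interferon list, whose members were chosen for their known response to interferon. It was present in 5.38% of the windows of all genes called higher and in 8.04% of those of genes called lower. Of the 6 called members of the list, 4 had a window, and those of Oas1a and Ifit1 held the letters 2 times each. The 250 bases before the start are shown 5′ to 3′ for these 2 genes, as called members that hold the element, with the matches in capitals; the 2 matches of Oas1a overlap. Oas1a lies on the minus strand at chr5:120907526-120907775 and Ifit1 on the plus strand at chr19:34640639-34640888, where the matches read on the opposite strand.

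Oas1a: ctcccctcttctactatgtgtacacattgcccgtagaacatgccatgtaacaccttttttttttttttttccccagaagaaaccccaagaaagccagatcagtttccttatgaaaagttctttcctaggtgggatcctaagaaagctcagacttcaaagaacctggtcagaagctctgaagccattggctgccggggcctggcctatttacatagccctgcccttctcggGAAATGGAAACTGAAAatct
Ifit1: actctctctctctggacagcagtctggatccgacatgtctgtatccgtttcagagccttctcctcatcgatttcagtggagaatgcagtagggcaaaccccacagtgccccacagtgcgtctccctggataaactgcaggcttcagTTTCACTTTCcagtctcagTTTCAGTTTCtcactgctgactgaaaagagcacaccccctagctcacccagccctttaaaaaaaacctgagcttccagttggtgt

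In Oas1a the nearest match ends 4 bases before the start and in Ifit1 75 bases before it. A match is a description of the letters, and binding was not measured.

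Of 25 STAT, SOCS and IRF genes 3 rose and 2 fell (median -0.036). The 3 rises were Cish, Socs2 and Socs3, members of the SOCS family, which STAT factors induce and which shut off the receptors that activate them. The family's other measured members, picked out afterwards, were Socs1 and Socs4 to Socs7; they lay between -0.47 and 0.12 and did not pass. Cish read 6.10, 6.62 and 5.93 without and 8.22, 8.39 and 8.16 with irradiation, 4.12-fold higher (SE 0.30, adjusted p = 0.00426), with the irradiated arrays closer together than the nonirradiated ones. Socs2 rose by 1.28, from 7.25, 7.19 and 7.48 to 8.52, 8.48 and 8.77, and Socs3 by 0.84. Osmr, the oncostatin M receptor, rose by 1.40, the 1 call among 20 colony-stimulating factors and their receptors (median 0.011). Ghr, the growth hormone receptor, rose by 1.51. Ghr read 8.12, 7.67 and 7.95 and 9.54, 9.29 and 9.45. It was 1 of 3 rises among 24 insulin and IGF genes, with 0 falls; the IGF-binding proteins Igfbp2 and Igfbp7 rose by 1.01 and 0.90. Osm, the ligand of Osmr, differed by 0.73 (adjusted p = 0.0777). Leaving out 1 of the 6 arrays did not end the calls of Cish, Socs2, Ghr, Osmr and Igfbp7. Calls ended for Socs3 without N1, N3, I1, I2 or I3, and for Igfbp2 without I2. A term for the sex pattern ended the calls of Socs3.

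Genes of hormones, growth factors and their receptors were among the calls. Tshr, the thyrotropin receptor, read 5.10, 4.80 and 4.91 and 7.19, 6.82 and 6.73, 3.93-fold higher (SE 0.28, adjusted p = 0.00278), and the groups were well apart. Fgf23, the phosphate hormone of osteocytes that marrow cells can also make, read 6.89, 7.06 and 6.57 and 9.16, 8.56 and 9.06, a rise of 2.09. It was the 1 call among 16 osteoblast and osteocyte markers, whose median was -0.024. Sema3a, a guidance factor of nerves and bone, rose by 1.5, the 1 call among 31 semaphorin genes. Eda2r and Tnfrsf10b, receptors of the TNF family that p53 induces, rose by 1.12 and 0.77, against the falls of Cd40 and Tnfsf13b in the same list of 43. Lgr5, an R-spondin receptor, fell by 1.24, the 1 call among 53 Wnt signalling genes. Tgfbr3 rose by 0.73, the 1 call among 54 TGF-beta and BMP genes. Of all genes tested 2.22% were called. The calls of Tshr, Sema3a and Eda2r held whichever of the 6 arrays was left out. Calls ended for Fgf23 without N3, I1 or I3, Tnfrsf10b without any 1 of the 6, Lgr5 without N2, N3, I2 or I3, and for Tgfbr3 without N1, N2, N3, I1 or I2. The calls of Tnfrsf10b and Tgfbr3 ended with a term for the sex pattern.

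Some antioxidant, iron and metal genes were called, all of them rises. Of 35 antioxidant genes 6 rose and 0 fell (median 0.25): glutathione synthetase Gss (1.24), sulfiredoxin Srxn1 (1.03), haem oxygenase Hmox1 (0.93), the mitochondrial peroxidase Prdx3 (0.83), thioredoxin reductase Txnrd1 (0.74) and the mitochondrial superoxide dismutase Sod2 (0.64). Txnrd1 read 8.27, 8.26 and 7.97 and 8.95, 8.86 and 8.90, a small difference against a small spread (SE 0.13). Of 30 iron genes 4 rose and 0 fell: Hp, Steap4 and Hmox1, given above, and Hfe (0.77), which tunes the iron hormone hepcidin. The metallothioneins Mt1 and Mt2, which bind zinc and copper, rose by 1.11 and 1.44, and the zinc importer Slc39a8 by 0.62, the 3 calls among 26 metallothioneins and zinc transporters, of which 10 were below 0 (median 0.079, -0.011 without N3). Mt2 read 9.92, 10.37 and 10.11 and 11.54, 11.52 and 11.67; Mt1 read 8.67, 8.65 and 8.51 and 9.46, 9.41 and 10.28. Both metallothioneins are also on the list of glucocorticoid-responsive genes, of which 5 of 20 rose and 0 fell. The other 3 were Pdk4 and Angptl4, given above, and Errfi1 (0.86), an inhibitor of the EGF receptor. Leaving out 1 of the 6 arrays did not end the calls of Txnrd1 and Mt2. Calls ended for Gss without N3 or I2, Srxn1 and Sod2 without N2, N3, I1, I2 or I3, Prdx3 without N2, N3, I2 or I3, and for Hfe and Errfi1 without any 1 of the 6. They also ended for Mt1 without N3, and for Slc39a8 without N1, N2, N3, I1 or I2. Srxn1, Prdx3, Sod2, Hfe, Slc39a8 and Errfi1 did not pass once a term for the sex pattern was added.

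TGCACNC, a form of the core of the metal response element, was searched on both strands. Other forms of the core, such as those with G at the fourth base, were not searched. The searched form stood in 12.8% of the 19177 promoter windows, so a match alone is common. It was present 2 times in the window of Mt1 and 2 times in that of Mt2. Both genes lie on chromosome 8 side by side on the plus strand. They are shown as the 2 called metallothioneins, and binding was not measured. The 250 bases before the start of Mt2 (chr8:94172368-94172617) hold 2 matches and those of Mt1 (chr8:94178839-94179088) hold 1, in capitals.

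Mt2: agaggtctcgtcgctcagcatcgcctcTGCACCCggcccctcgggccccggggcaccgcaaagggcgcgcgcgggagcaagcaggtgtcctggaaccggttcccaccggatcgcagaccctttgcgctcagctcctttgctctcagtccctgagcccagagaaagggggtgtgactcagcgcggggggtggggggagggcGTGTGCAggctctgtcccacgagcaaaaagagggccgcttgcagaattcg
Mt1: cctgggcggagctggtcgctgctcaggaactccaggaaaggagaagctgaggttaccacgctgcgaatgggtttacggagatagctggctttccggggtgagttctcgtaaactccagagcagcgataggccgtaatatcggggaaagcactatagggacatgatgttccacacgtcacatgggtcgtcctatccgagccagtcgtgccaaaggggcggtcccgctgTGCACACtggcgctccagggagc

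Of 22 endothelial markers 18 were above 0, 10 were higher without overlap, against 8.95% of all genes, and 2 rose (median 0.42): Ramp2 (0.82), a coreceptor for adrenomedullin, and Mmrn2 (0.70), a vessel wall protein. The laminin chains Lama4 and Lamb1, found in vessel basement membranes, rose by 1.12 and 1.08, and Matn2 by 0.59, 3 of 46 matrix genes with 0 falls. Mmp13, a collagenase of bone and cartilage cells, rose by 1.10 and Adamts1 by 1.21, 2 of 43 metalloproteinases and inhibitors. None of the 40 collagens passed (median -0.056); Col6a3 had 0.69 with an adjusted p of 0.0742. Mgp, an inhibitor of calcification that is not on these lists, read 8.69, 8.0 and 7.62 and 9.61, 9.91 and 10.71, a rise of 1.97 (SE 0.31, adjusted p = 0.00631). Podxl, a sialomucin of vessels and early blood cells, read 6.34, 6.49 and 6.56 and 9.18, 8.86 and 8.31, 4.99-fold higher. Aoc3, the amine oxidase of vessels and fat cells, rose by 2.0, from 7.21, 8.11 and 7.61 to 10.20, 9.61 and 9.10. The calls of Lamb1, Mmp13, Mgp and Podxl held whichever of the 6 arrays was left out. Calls ended for Ramp2 and Mmrn2 without N1, N3, I1, I2 or I3, Lama4 and Matn2 without N2, N3, I1, I2 or I3, and for Adamts1 and Aoc3 without any 1 of the 6. The calls of Ramp2, Mmrn2, Lama4, Matn2, Adamts1 and Aoc3 ended with a term for the sex pattern.

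The remaining large rises came from unrelated families. Cyp2f2, a cytochrome P450 enzyme, read 6.81, 7.36 and 7.07 and 10.28, 9.97 and 9.34, 6.89-fold higher (SE 0.46, adjusted p = 0.00789); with Cyp1b1 (1.15) it made 2 calls among 32 cytochrome P450 genes, whose median was -0.089. Ankrd36, an ankyrin repeat gene, read 6.27, 5.74 and 5.32 and 7.88, 8.52 and 8.08, a rise of 2.38. Plek2, a pleckstrin homologue known from red cell precursors, rose by 2.06, from 8.79, 8.30 and 7.65 to 10.03, 10.54 and 10.34. Cbr2, a carbonyl reductase, Fah, the last enzyme of tyrosine breakdown, and Atp1b2, a beta subunit of the sodium pump, rose by 1.78, 1.77 and 1.75. Atp1b2 read 9.58, 9.73 and 9.58 and 11.49, 11.37 and 11.29, with little spread in either group. Rbp4 and Rarres2, the retinol carrier and the adipokine chemerin, rose by 1.33 and 1.17, while the retinal dehydrogenase Aldh1a1 fell by 1.01. Ada, which removes adenosine, rose by 1.15, and was the 1 call in both the list of 34 nucleotide synthesis genes and that of 22 purine receptors and ecto-nucleotidases. Leaving out 1 of the 6 arrays did not end the calls of Cyp2f2, Ankrd36, Plek2, Cbr2, Atp1b2, Rbp4 and Ada. Calls ended for Cyp1b1 without N2, N3, I1, I2 or I3, Fah without N3 or I1, Rarres2 without N2, N3 or I3, and for Aldh1a1 without N1, N2, I1, I2 or I3. With a term for the sex pattern, Cyp1b1 and Aldh1a1 no longer passed.

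Some families split, with close relatives going opposite ways. The neighbouring C-type lectin genes Clec4n (Dectin-2) and Clec4d, both receptors of myeloid cells for fungal sugars and lipids, were called in opposite directions; here too, as for the Oas1 and GIMAP genes, whether rows of relatives share probe sequence was not tested. Clec4n rose from 5.73, 5.51 and 5.70 to 7.48, 7.55 and 8.30, by 2.13 (SE 0.21, adjusted p = 5.16e-04), and Clec4d fell from 9.11, 8.73 and 8.49 to 5.91, 6.51 and 6.42, by 2.50 (SE 0.26, adjusted p = 5.66e-04). Over 37 C-type lectins Clec4n was the 1 rise and 4 fell. In the Ifi200 family of DNA-binding interferon-induced proteins, Ifi205 rose by 2.86 and Ifi209 fell by 1.90, 2 calls of 9. Ifi205 read 5.98, 6.04 and 6.07 and 8.60, 9.01 and 9.05; Ifi209 read 9.57, 9.15 and 9.12 and 7.23, 7.40 and 7.51. Among 19 cell-surface peptidases, Anpep (1.47), Enpep (1.24) and Cpd (0.75) rose, and Cpm (-3.01) and Dpp4 (-1.42) fell. Cpm, a carboxypeptidase of macrophages and B cells, read 8.32, 9.19 and 8.97 and 6.21, 5.73 and 5.50, 8.08-fold lower (SE 0.34, adjusted p = 8.79e-04). In the MS4A family of 18, Ms4a6d, a macrophage gene, rose by 1.09 and Ms4a1, encoding CD20, fell by 4.33. The calls of Clec4n, Clec4d, Ifi205, Ifi209, Enpep, Cpm, Dpp4 and Ms4a1 held whichever of the 6 arrays was left out. Calls ended for Anpep without I1 or I2, and for Cpd and Ms4a6d without N2, N3, I1, I2 or I3. Cpd and Ms4a6d did not pass once a term for the sex pattern was added.

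The carbonic anhydrases, enzymes that convert carbon dioxide to bicarbonate, were picked out after their values were seen. Of 15 measured, 4 rose and 1 fell, and the other 10 lay between -0.38 and 0.38. The rises were the mitochondrial Car5b (2.0), Car3 (1.55), Car13 (1.36) and the membrane-bound Car4 (1.26). Car5b read 5.93, 5.17 and 4.90 and 7.18, 7.20 and 7.62. Car13, Car1 and Car3 are neighbours on chromosome 3 and alternated in direction. Car1, which red cell precursors express, read 12.72, 12.16 and 12.01 and then 10.77, 11.47 and 10.90. Car13 on one side and Car3 on the other rose. The 2.22% of all genes called is a share of single genes and cannot be set against a count of pairs. Over the genome, both genes were called in 29 of 19897 pairs of tested genes adjacent in the reference. Of these pairs 20 went in the same direction and 9 in opposite directions, and whether called genes cluster was not tested. Pairs in the same direction included Rag1 with Rag2, Blnk with Dntt, Mt1 with Mt2, and Kng1 with Kng2, the kininogen genes, which rose by 1.32 and 1.04 and were also picked after their values were seen. Car5b, Car3, Car13, Car4, Kng1 and Kng2 passed in all 6 fits that left out 1 array. Calls ended for Car1 without I1 or I3.

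Lists of basic cell machinery lay above 0 with few calls. Respiratory chain subunit genes were above 0 in 40 of 41 members (median 0.43), with 0 calls. Proteasome genes were above 0 in all 31 (median 0.48), with 1 call, Psmd4 (0.72), a ubiquitin receptor of the proteasome. Cytosolic ribosomal protein genes were above 0 in 41 of 44 (median 0.23), DNA replication genes in 36 of 39 (0.24) and citric acid cycle genes in 19 of 20 (0.29), with 0 calls in each. These medians depended on the N3 array. Without it they were 0.23 for the respiratory chain, 0.31 for the proteasome, 0.13 for ribosomal proteins, 0.10 for DNA replication and 0.21 for the citric acid cycle. The level of a gene moved with the difference in the same way. Over 4 equal bins of mean level, the genes of the brightest bin had a median difference of 0.10 and those of the dimmest -0.093, and without N3 these were 0.024 and -0.042. The part of the narrow range of N3 in these medians was not tested further. By contrast the adipocyte median was 1.29 with and 1.28 without N3, and the B-lineage median -1.69 and -1.75. Calls ended for Psmd4 without N3, I1, I2 or I3. Psmd4 did not pass once a term for the sex pattern was added.

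**Figure D4:**
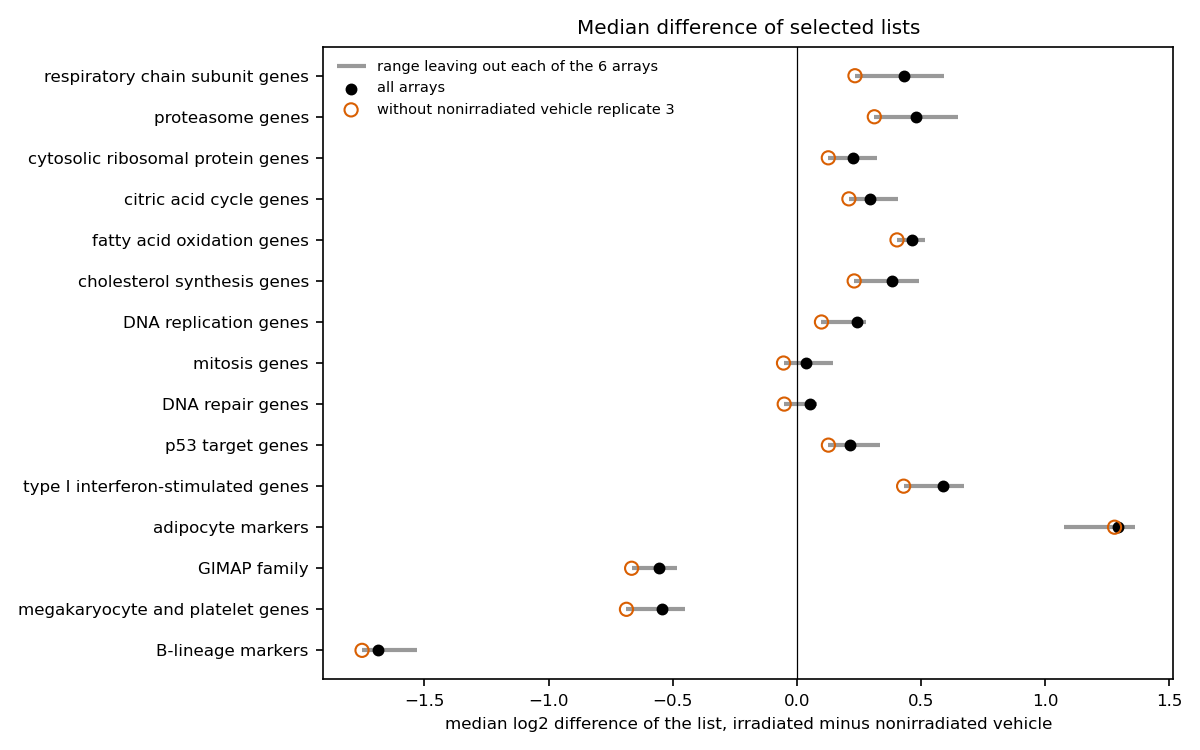
Median log2 difference, irradiated minus nonirradiated vehicle, over the measured members of selected lists (black, all arrays), with the range when each of the 6 vehicle arrays is left out in turn (grey) and the value without nonirradiated vehicle replicate 3 (orange). Without that array the respiratory chain, proteasome, ribosomal protein and DNA replication medians move toward 0, while the B-lineage and adipocyte medians change little.

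Genes of the damage response were read 6 days after irradiation. Of 37 p53 target genes 2 rose, the TNF family receptors Eda2r and Tnfrsf10b given above, and 0 fell. In 11 of the 37 the groups were apart with higher values after irradiation, against 8.95% of all genes, and in 3 with lower values, against 9.83%. Their median was 0.21, 0.13 without N3 and at most 0.34 when another array was left out. Eda2r read 4.35, 4.82 and 4.98 and 5.60, 6.19 and 5.71, with no overlap. Perp, a p53 target of cell death, differed by 0.91 (adjusted p = 0.0528), and Rrm2b, which supplies nucleotides for repair, by -0.84 (adjusted p = 0.0653). Of 54 DNA repair genes 2 fell and 0 rose, where 1.01% of all genes were called lower. Lig4, the ligase that closes double-strand breaks and receptor gene joints, fell by 1.10, from 8.79, 8.43 and 8.54 to 7.44, 7.24 and 7.78, and Neil1, a base excision enzyme, by 0.62. Of 36 apoptosis regulators Birc3 fell and 0 rose. None of the 40 mitosis genes passed (median 0.038, -0.053 without N3), and none of 18 histone genes (0.14). Bag3, a cochaperone, rose by 0.67, the 1 call among 22 heat shock genes, and Ier3, a survival gene that stress induces, by 1.56, the 1 call among 28 immediate early genes. Creld2, an endoplasmic reticulum stress gene, rose by 0.83, and the oxidase Ero1b fell by 0.90. Bnip3, which marks mitochondria for removal, rose by 0.97; with Angptl4, given above, it made 2 calls among 26 hypoxia-responsive genes. Without any 1 of the 6 arrays the calls of Eda2r held. Calls ended for Tnfrsf10b, Bag3 and Creld2 without any 1 of the 6, Lig4 without N1, N2, N3, I1 or I2, Neil1 and Bnip3 without N2, N3, I1, I2 or I3, and for Ier3 without N2, N3, I2 or I3. They also ended for Ero1b without N2, I2 or I3. With a term for the sex pattern, Tnfrsf10b, Lig4, Neil1, Bag3, Creld2 and Bnip3 no longer passed.

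Of the 92 lists, 38 held only rises among their calls, 16 only falls, 17 both, and 21 had no called member, with medians between -0.56 for the GIMAP genes and 0.43 for the respiratory chain. Lists with no call included osteoclast markers (17 measured, median -0.028), chondrocyte markers (18, 0.030), Notch signalling genes (32, -0.023), ephrins and their receptors (21, -0.041), circadian clock genes (21, 0.003), nuclear receptors (42, -0.015), MHC class I presentation genes (17, 0.15), amino acid response genes (28, 0.19) and pentose phosphate genes (15, 0.14). Nr1h3, the oxysterol receptor, came nearest to the threshold among the nuclear receptors, with 0.59 (adjusted p = 0.0528), and Ppard, a fatty acid receptor, had 1.08 (adjusted p = 0.0699). Nnt, a mitochondrial transhydrogenase, differed by -1.15 (adjusted p = 0.0953). A p that misses the threshold does not show that the groups were equal. Most list medians depended on single arrays, and not only those near 0. Leaving out 1 of the 6 moved the median of 71 of the 92 lists by over 1.5 times or changed its sign. It changed the sign in 29, and the largest median that moved was 0.48 in size. The median ran from 0.075 to 0.26 for MHC class I presentation, from 0.029 to 0.34 for amino acid response and from 0.0029 to 0.25 for pentose phosphate genes.

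The 442 genes were then read in the other 6 arrays, from mice given PTH. Their differences share no array with the vehicle differences, but the PTH arrays set part of the spread by which the 442 genes were called, so the shares over all genes beside the counts below are not what unchanged genes would give. All 201 genes that fell in vehicle mice were lower in the irradiated PTH arrays too (median -1.12), and in 196 of them the groups were apart, where 10.9% of all genes were lower without overlap. Of the 241 rises 228 were higher in the irradiated PTH arrays (median 0.70), and in 172 the groups were apart, where 8.93% of all genes were higher without overlap. Over all genes, 53.5% had the same sign in both comparisons. None of the 442 had groups apart in the opposite direction. The fit of the 6 vehicle arrays alone, in which PTH arrays had no part, called 340 genes: all 142 of its falls were lower in the PTH arrays, 136 without overlap, and 187 of its 198 rises were higher, 121 without overlap. Irradiated PTH replicate 3 stood apart from the other arrays, with correlations between 0.934 and 0.973 and an array weight in limma of 0.205, the lowest of the 12. Without it all 201 falls were lower and 237 of the 241 rises higher in the PTH arrays, and 1 of the 442 had groups apart in the opposite direction. The female pattern is unevenly spread over the PTH groups, as given above, and with a term for it 201 falls were lower and 236 rises higher. Since the genes were chosen in the vehicle arrays, a smaller difference in the PTH arrays is not by itself a difference between treatments.

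**Figure D5:**
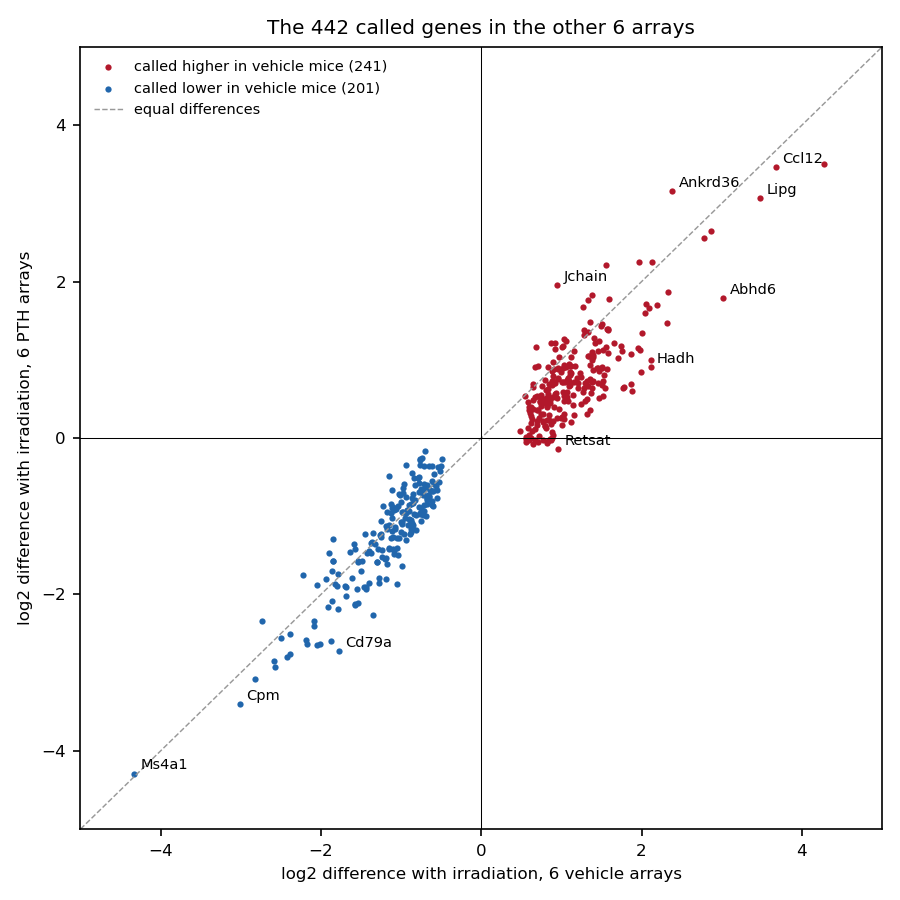
Log2 difference with irradiation in the 6 vehicle arrays (x axis) and in the 6 PTH arrays (y axis) for the 241 genes called higher (red) and 201 called lower (blue) in vehicle mice, with the line of equal differences dashed. All 201 falls lie below 0 in the PTH arrays, and 228 of the 241 rises lie above 0.

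Cpm differed by -3.01 in vehicle and -3.40 in PTH mice, and Il1b differed by -2.74 in vehicle and -2.34 in PTH mice. Ccl12 differed by 3.68 in vehicle and 3.46 in PTH mice, with PTH values of 5.08, 5.61 and 5.34 without and 8.64, 8.58 and 9.19 with irradiation. Adipocyte markers had a median of 1.29 in vehicle and 0.57 in PTH mice, B-lineage markers -1.69 and -2.13, and interferon-stimulated genes 0.59 and 0.45. Without irradiated PTH replicate 3 these PTH medians were 0.71, -2.22 and 0.61, and with a term for the sex pattern 0.75, -2.32 and 0.57. Abhd6 differed by 3.02 in vehicle and 1.79 in PTH mice. Hadh differed by 2.11 in vehicle and 0.91 in PTH mice, and Hp differed by 1.88 in vehicle and 0.60 in PTH mice. Jchain differed by 0.94 in vehicle and 1.95 in PTH mice. Without irradiated PTH replicate 3 the PTH differences were 2.43 for Abhd6, 1.29 for Hadh and 0.89 for Hp. The test of the difference between the 2 irradiation effects called 0 of 19938 genes by limma (0%), with a smallest adjusted p of 0.732, and 1094 genes had an unadjusted p under 0.05 where 997 would be expected. The 6 genes with the smallest p in that test were Kcnk5, Plekhf1, Adh1, Cd27, Retsat and Mrps6, none of which passed. Kcnk5, a potassium channel, read 5.68, 5.70 and 5.73 without and 6.51, 6.56 and 6.67 with irradiation in vehicle mice, and 5.90, 5.94 and 6.05 and 6.24, 5.87 and 5.78 in PTH mice. Plekhf1 differed by 0.89 in vehicle and 0.039 in PTH mice, and Retsat, a retinol saturase, by 0.96 and -0.14. Cd27, a lymphocyte costimulatory receptor, differed by -0.40 and -1.35, and Adh1, an alcohol dehydrogenase, by 0.31 and -0.49.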

How the data were processed

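Total RNA of the Trizol flush was turned into biotinylated cDNA and hybridised, per the labels' protocols. The authors' deposited value table holds log2 expression values of the arrays, a scale read from the values and the name RMA (background correction, quantile normalization and median polish); per the submitters' processing notes the tools were affy, RMA and limma, with no versions. Whether all arrays were normalized together and the array's genome build are not given in the sources used here, and every value column was matched to its sample by title.

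Of 35556 array rows, 21789 carried exactly 1 gene symbol and gave 19938 genes, 999 of them with several rows, of which the brightest over 12 arrays was used; 1621 rows with several symbols and 12146 not listed in the annotation table were left out. Symbols were checked against RefSeq's GRCm38.p6 table, where 91 rows had no match.

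A model of 4 group means over the 12 arrays was fitted with limma (3.58.1, R 4.3.3), leaving 8 residual degrees of freedom and default empirical Bayes moderation, so that the PTH arrays share the estimate of spread. A gene was called at an adjusted p (Benjamini-Hochberg, all 19938 genes) under 0.05, and every adjusted p printed is from this fit. The comparison, the named genes and the 92 gene lists (2639 entries, 2417 measured, 222 not analysed here) were chosen with earlier results of these data known. Lists are described by counts and medians, without a test. Each count of calls is to be read against the 1.21% of all genes called higher and the 1.01% called lower. These shares are not repeated for every list, and a list with few calls may lie near them. Named genes are the 30 largest rises and 30 largest falls among called genes with groups apart, without predicted genes, small RNAs, olfactory receptors or segments of antigen receptors; called members of the lists and up to 4 members of smallest p; the families of the chemokine and serpin that rose most; and the 6 genes of smallest p for the difference between treatments. The text says where another gene was picked after seeing its values.

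The script was tested on simulated data. Alternatives covered the samples fitted, variance model, array weights, scaling, dim genes, row choice, replicate block, sex pattern, narrow-range arrays and each array left out. For the vehicle comparison, irradiated PTH replicate 3 was the only PTH array whose removal alone was counted. The medians of the lists in the alternatives, the rows without 1 symbol, and the PTH values of genes called in the vehicle arrays alone, without irradiated PTH replicate 3 or with the sex term were chosen after seeing the data. Replicate numbers do not pair the arrays by the labels.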

Additional observations from a re-analysis of the deposited data

Results flagged for a closer look

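Array rows that the comparisons did not use also carried changes, and this is why they were looked at again. Of 1621 rows with several symbols, 6 passed limma's test within that class (0.370%), 3 higher and 3 lower, with log2 differences reaching 3.0 and -2.40. Of 12146 rows not listed in the annotation table, 13 passed (0.107%), 6 higher and 7 lower, reaching 3.03 and -3.10. They are unnamed here. Both shares lie below the 2.22% of named genes, and the groups were apart in 14.4% and 12.4% of these rows against 18.8% of named genes. The median level was 6.94 for rows with several symbols and 5.65 for rows not listed.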

How the results depend on the processing

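The direction of every called gene was kept in each alternative except the use of the dimmest row of a gene. There Dab2 (-0.136), Dnah6 (-0.0087) and Pvt1 (-0.102), which rose in the reported fit, lay below 0. Of the 25 called genes with several rows, 22 kept their direction in the dimmest row and only 9 were also called by it. The number of genes called was 442. It ran from 211 to 762 over the fits that left out 1 of the 6 vehicle arrays or irradiated PTH replicate 3. Fits without any other single PTH array were not counted for this comparison. The number was 211 without irradiated vehicle replicate 2 and 762 (469 higher, 293 lower) without irradiated PTH replicate 3. That PTH array bears only on the estimate of spread. With array weights the number was 1149 (607 higher, 542 lower), and 436 of the 442 genes were among them. The other alternatives gave 304 (a term for the sex pattern) to 564 (quantile normalization repeated) genes. With the 6 vehicle arrays fitted alone 340 genes passed, 287 of them among the 442. The replicate number as a block gave 500 genes, 408 of them shared; the labels do not pair the arrays, the deviations of same-numbered arrays correlated at -0.65, 0.212 and -0.253, and not every array correlated best with its own number. For the difference between treatments, 0 genes passed in each alternative run. Of the rises 90, and of the falls 83, passed in all alternatives counted here. Precision is limited by 3 arrays per group, and signal over background is unknown for these values.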
